A study of Sus scrofa with 24 samples.

Results

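The enzymes of de novo lipogenesis were followed in subcutaneous adipose tissue of pigs from lines selected on residual feed intake, which is feed consumed in excess of the amount predicted from growth and maintenance. The list held 9 genes, and a gene was measured where a probe of the array carried its symbol, either in the scanner files or through the RefSeq accession or gene identifier given there. Probes were found for 8 of the 9, ACLY, ACSS2, ACACA, FASN, SCD, ELOVL5, ME1 and PGD, with 23 of the 43603 probes of the array between them. No probe was named for ELOVL6. All 23 probes passed the filter on low signal, against 28606 of all probes, and on their brightest probe all 8 genes were well above background on 8 of 8 arrays of every group. The groups were low residual feed intake pigs with free access to feed (RFIneg), high residual feed intake pigs held to the feeding level of RFIneg (RFIplR) and high residual feed intake pigs with free access to feed (RFIpl). All were sampled at 115 kg body weight, with 8 pigs in each group, an array for each pig, and RNA labelled with Cy3 on 1-colour Agilent arrays. Age, sex and breed are not given in the sources used here. RFIneg and RFIpl differ by line under free feeding, RFIneg and RFIplR by line at a common feeding level, and RFIplR and RFIpl by feeding level within the high line. RFIpl arrays serve in both comparisons with RFIpl, and RFIplR and RFIneg arrays likewise each serve in 2.

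De novo lipogenesis builds fatty acids from carbohydrate and acetate carbon. Citrate exported from mitochondria is cleaved to acetyl-CoA, acetyl-CoA is carboxylated to malonyl-CoA, fatty acid synthase joins these units to palmitate, and elongases and desaturases turn palmitate into longer and unsaturated fatty acids, while malic enzyme and the pentose phosphate pathway supply the NADPH. In pigs adipose tissue rather than liver is the main site of this synthesis, and insulin and feeding are known to raise the transcripts of many of these enzymes through transcription factors of the SREBP and ChREBP families.

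No enzyme passed the test in any of the 3 comparisons (0 of 8 each, where 0.206% of all probes passed in RFIneg against RFIpl, 0% in RFIneg against RFIplR and 0.297% in RFIplR against RFIpl). All 8 had a higher mean in RFIneg than in RFIpl and than in RFIplR, against 49% and 48.6% of all probes. Without the array RFIpl 2 it was 7 of 8 against RFIpl, with ACACA lower in RFIneg. The enzymes vary together over the arrays, so these are not 8 separate results. On the brightest probe named for each gene the largest difference was that of ME1, the malic enzyme of the cytosol, in RFIneg against RFIpl. A brighter probe that is only described as malic enzyme, given below, had group means closer together. Values are log2 of the background-subtracted intensity relative to the 75th percentile of the array, called the level below, and a difference is one of mean levels, with its standard error (SE), from 1 limma fit over the 24 arrays. P-values are two-sided and adjusted over all 28606 probes by Benjamini-Hochberg, with a threshold of 0.05. The levels of different probes are not set against each other. In bulk tissue fewer cells of a type and less RNA per cell cannot be told apart.

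Properties of the arrays bear on the values below. By the 75th percentile of their signal, 17 arrays were bright (414 to 663 intensity units) and 7 dim (69.4 to 94.4), with 2 dim arrays in RFIneg, 3 in RFIplR and 2 in RFIpl, and 83.1% of all probes differed between bright and dim arrays after scaling. An array had 43.1% to 79.9% of its probes well above background, and no spot was saturated. Array RFIpl 2 carried muscle transcripts. Of 12 listed muscle markers 9 were measured, and their summed signal, in log2, was 3.74 to 4.76 in RFIneg, 3.71 to 5.10 in RFIplR and 3.94 to 5.51 in RFIpl without RFIpl 2, which itself stood at 10.6. TNNT3, the fast skeletal troponin T, stood at 7.19 in RFIpl 2 and at 1.72 in RFIpl 1, the next highest array. RFIpl 1 also had the sum of 5.51, and its median level over the muscle markers was 1.34, while all arrays but these 2 had negative medians. Without RFIpl 1 and 2 together the median difference over the 8 enzymes was 0.42 in RFIneg against RFIpl and 0.07 in RFIplR against RFIpl. The summed signal of all 8 fat cell markers was 9.94 to 10.5 in RFIneg, with a median of 10.3, 9.73 to 10.3 in RFIplR, with a median of 10.1, and 9.57 to 10.4 in RFIpl, with a median of 9.92 and RFIpl 2 at 9.93. The median level over these markers was nevertheless lower in RFIpl 2 than on any other of the 24 arrays, at 5.63, and 4 of the 8, PLIN1, LEP, PPARG and LPL, were lower there than on each other RFIpl array. With all arrays in, the fat cell markers ran the same way as the enzymes in the 3 comparisons, and none passed the test. Above 0 lay 7 of 8 in RFIneg against RFIpl (median 0.46, and 0.36 without RFIpl 2) and 8 of 8 in RFIneg against RFIplR (median 0.18). In RFIplR against RFIpl 7 of 8 markers lay above 0 (median 0.27 with and without RFIpl 2). There the enzymes parted from the markers without RFIpl 2, with 4 of 8 enzymes above 0 (median 0.10). LIPE, the hormone-sensitive lipase, had the smallest p of these in RFIneg against RFIpl, at 0.55 ± 0.17 (adjusted p = 0.242). The part of fat cell content in the results below was not tested. Of the red blood cell markers 0 of 3 passed the filter on low signal. The summed signal of 4 measured epithelial markers, of 7 listed, was at most -0.32 in RFIneg and 0.42 in RFIplR and reached 5.89 in RFIpl 7 and 4.41 in RFIpl 8, against at most 0.28 on the other RFIpl arrays. The median difference over the 8 enzymes in RFIneg against RFIpl was 0.78 without RFIpl 7 and 0.78 without RFIpl 8, against 0.72 with all arrays. Each comparison with RFIpl is therefore given with and without RFIpl 2.

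**Figure D1:**
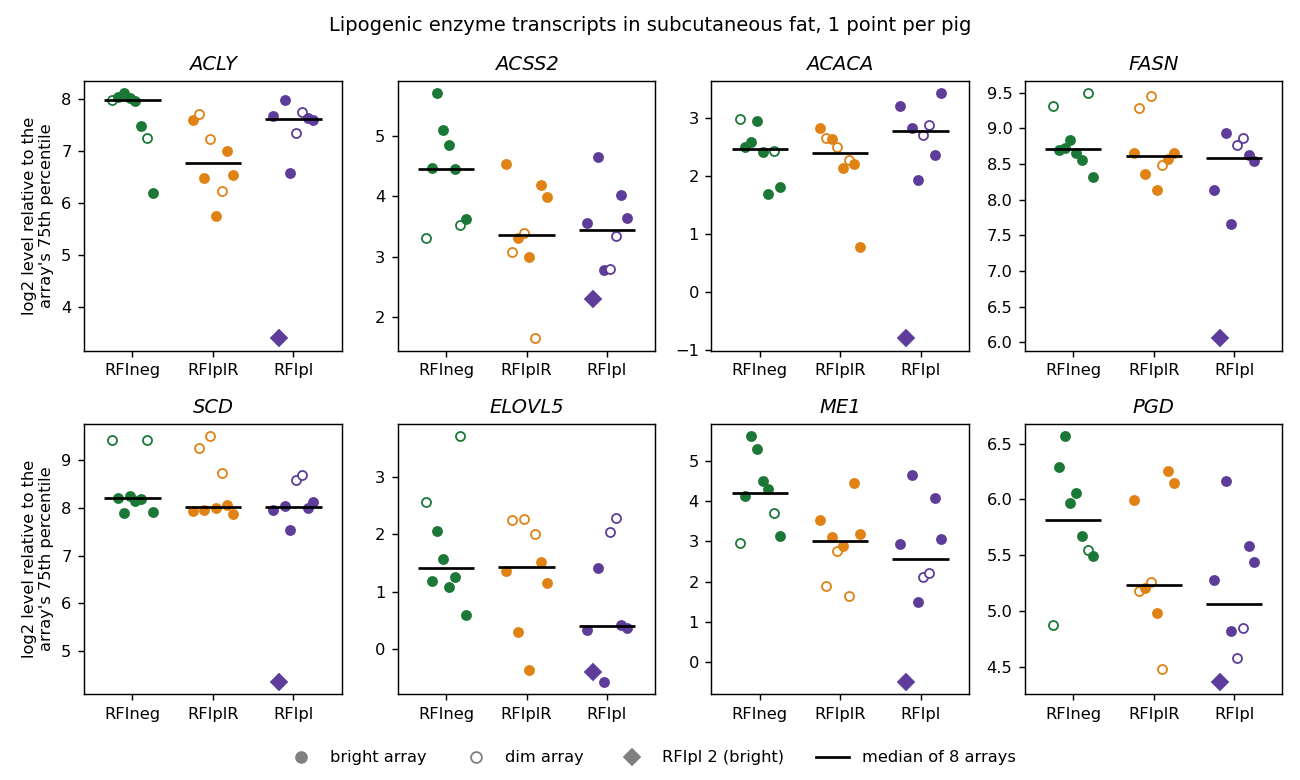
Level of each enzyme on its brightest probe (y axis, log2 relative to the 75th percentile of the array) in the 8 pigs of RFIneg, RFIplR and RFIpl (x axis), with bright arrays filled, dim arrays open, RFIpl 2 as a diamond and the median of each group as a bar. The groups overlap for every enzyme, and RFIpl 2 is the lowest of the 24 points for 6 of the 8.

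Acetyl-CoA for fatty acid synthesis is supplied by ACLY, which cleaves citrate, and ACSS2, which activates acetate. ACLY had lowest, median and highest levels of 6.20, 7.98 and 8.11 in RFIneg, of 5.75, 6.77 and 7.71 in RFIplR and of 3.40, 7.62 and 7.99 in RFIpl. The low end of RFIpl was RFIpl 2 alone, since the next lowest RFIpl array, RFIpl 4, stood at 6.59, and 5 of 8 RFIneg arrays lay above all 8 RFIplR arrays. The difference was 0.63 ± 0.50 in RFIneg against RFIpl (adjusted p = 0.99996), 0.81 ± 0.50 in RFIneg against RFIplR (adjusted p = 0.999) and -0.18 ± 0.50 in RFIplR against RFIpl (adjusted p = 0.999). Without RFIpl 2 the differences against RFIpl became 0.12 ± 0.31 for RFIneg and -0.69 ± 0.31 for RFIplR, the second with an adjusted p of 0.579. The 3 ACLY probes all lay below 0 in RFIplR against RFIpl, at -0.44 to -0.08 with RFIpl 2 and -0.89 to -0.69 without it.

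ACSS2 had lowest, median and highest levels of 3.32, 4.46 and 5.70 in RFIneg, of 1.65, 3.36 and 4.52 in RFIplR and of 2.31, 3.45 and 4.65 in RFIpl. In RFIneg 7 of 8 arrays lay above the RFIpl median and 3 above the highest RFIpl array, so the groups overlapped in part, while RFIplR and RFIpl covered nearly one range. The difference was 0.99 ± 0.40 in RFIneg against RFIpl (1.98-fold, adjusted p = 0.557), 0.98 ± 0.40 in RFIneg against RFIplR (adjusted p = 0.999) and 0.0031 ± 0.40 in RFIplR against RFIpl (95% interval -0.83 to 0.83). Leaving out RFIpl 2 gave 0.83 ± 0.41 in RFIneg against RFIpl, with an adjusted p of 0.826. Its other 2 probes gave 0.66 and 0.71 in that comparison. The second of these, which reads through without a stop in 1 of 3 frames, is shown as an example and was chosen after its values were seen. It gave nearly the same difference in RFIneg against either high-line group, 0.71 against RFIpl and 0.72 against RFIplR, although without RFIpl 2 the first was 0.41. The brightest probe did likewise, at 0.99 and 0.98. Letters here and below are 5′ to 3′ as in the scanner files, in lower case throughout since no base is singled out.
ACSS2 probe A_72_P560374: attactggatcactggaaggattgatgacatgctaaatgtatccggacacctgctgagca

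The committed step, the making of malonyl-CoA, belongs to ACACA, acetyl-CoA carboxylase alpha, and palmitate is made by FASN, fatty acid synthase. ACACA had lowest, median and highest levels of 1.68, 2.46 and 2.97 in RFIneg, of 0.78, 2.39 and 2.82 in RFIplR and of -0.79, 2.77 and 3.42 in RFIpl. RFIpl held both the lowest array, RFIpl 2, and the highest, RFIpl 8, and only 2 of 8 RFIneg arrays exceeded the RFIpl median. The difference was 0.10 ± 0.43 in RFIneg against RFIpl (95% interval -0.80 to 0.997), 0.17 ± 0.43 in RFIneg against RFIplR (-0.73 to 1.06) and -0.07 ± 0.43 in RFIplR against RFIpl (-0.96 to 0.83). Without RFIpl 2 the first turned to -0.34 ± 0.28 and the third to -0.51 ± 0.28. The sign of ACACA in RFIneg against RFIpl thus turned when 1 array was left out.

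The pair of ACACA probes did not give one answer. The brighter, A_72_P442314, is the one just described, and the dimmer, A_72_P305844, gave 0.90 ± 0.60 in RFIneg against RFIpl, 0.83 ± 0.60 in RFIneg against RFIplR and 0.07 ± 0.60 in RFIplR against RFIpl. Without RFIpl 2 it stood at 0.46 ± 0.52 in RFIneg against RFIpl, on the other side of 0 from the brighter probe. Each is 60 bases long with 45% G and C and has 1 frame without a stop. They are shown because the answer for ACACA depended on which was read.
ACACA probe A_72_P442314: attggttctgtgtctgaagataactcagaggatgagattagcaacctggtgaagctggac
ACACA probe A_72_P305844: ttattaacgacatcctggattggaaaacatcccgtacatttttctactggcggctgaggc

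FASN had lowest, median and highest levels of 8.33, 8.71 and 9.49 in RFIneg, of 8.13, 8.61 and 9.46 in RFIplR and of 6.05, 8.59 and 8.94 in RFIpl. The medians lay close together. RFIpl held the lowest arrays, RFIpl 2 at 6.05 and RFIpl 4 at 7.65, both bright. Its dim arrays also stood lower, with a mean of 8.82, against 9.41 in RFIneg and 9.08 in RFIplR. The difference was 0.63 ± 0.32 in RFIneg against RFIpl (adjusted p = 0.798), 0.12 ± 0.32 in RFIneg against RFIplR (adjusted p = 0.999) and 0.50 ± 0.32 in RFIplR against RFIpl (adjusted p = 0.864). These differences against RFIpl became, without RFIpl 2, 0.32 ± 0.23 for RFIneg and 0.20 ± 0.23 for RFIplR. All 3 FASN probes lay above 0 in each comparison, at 0.63 to 1.23, 0.0077 to 0.70 and 0.50 to 1.07 in that order.

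Palmitate and stearate are desaturated by SCD, stearoyl-CoA desaturase, and ELOVL5 lengthens mainly polyunsaturated fatty acids. SCD had lowest, median and highest levels of 7.90, 8.20 and 9.43 in RFIneg, of 7.87, 8.03 and 9.50 in RFIplR and of 4.36, 8.02 and 8.69 in RFIpl. Apart from RFIpl 2 the spread was one between array classes. Bright arrays stood at 7.90 to 8.25 in RFIneg, 7.87 to 8.06 in RFIplR and 7.54 to 8.12 in RFIpl without RFIpl 2, and dim arrays at 9.42 to 9.43, 8.75 to 9.50 and 8.60 to 8.69 in the same order of groups. The difference was 0.77 ± 0.46 in RFIneg against RFIpl (adjusted p = 0.937), 0.01 ± 0.46 in RFIneg against RFIplR (95% interval -0.94 to 0.97) and 0.76 ± 0.46 in RFIplR against RFIpl (adjusted p = 0.830). The differences against RFIpl without RFIpl 2 were 0.30 ± 0.30 for RFIneg and 0.29 ± 0.30 for RFIplR.

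SCD had the most probes, 9, and in RFIneg against RFIpl the brightest of them gave the smallest difference. They ran between 0.77 and 1.78, a spread of 1.01, and without RFIpl 2 between 0.30 and 1.12, with all 9 above 0 in both. The probe A_72_P558694, shown as an example of the larger differences, gave 1.68 ± 0.88, and 0.89 ± 0.67 without RFIpl 2, against 0.77 and 0.30 on the brightest probe. It was chosen after its values were seen.
SCD probe A_72_P558694: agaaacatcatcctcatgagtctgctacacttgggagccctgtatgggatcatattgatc

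ELOVL5 had lowest, median and highest levels of 0.59, 1.41 and 3.70 in RFIneg, of -0.37, 1.44 and 2.27 in RFIplR and of -0.57, 0.39 and 2.28 in RFIpl. All 8 RFIneg arrays lay above the RFIpl median, and here RFIpl 4, not RFIpl 2, was the lowest of the 24. The difference was 1.01 ± 0.48 in RFIneg against RFIpl (2.02-fold, adjusted p = 0.711), 0.44 ± 0.48 in RFIneg against RFIplR (adjusted p = 0.999) and 0.57 ± 0.48 in RFIplR against RFIpl (adjusted p = 0.999). ELOVL5 was higher on dim arrays, of which RFIplR held 3 and the other groups 2 each. In a fit with brightness as a block the second difference was 0.65 and the third 0.36, and neither passed. Bright arrays averaged 1.29 in RFIneg, 0.79 in RFIplR and 0.26 in RFIpl. Leaving out RFIpl 2 gave differences against RFIpl of 0.85 ± 0.49 for RFIneg and 0.41 ± 0.49 for RFIplR. ELOVL5 was matched through the gene identifier in the scanner files rather than an accession, by a single probe, whose letters are given for that reason.
ELOVL5 probe A_72_P508419: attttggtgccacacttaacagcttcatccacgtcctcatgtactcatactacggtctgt

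NADPH for the synthesis comes from ME1, the cytosolic malic enzyme, and from PGD, the 6-phosphogluconate dehydrogenase of the pentose phosphate pathway. ME1 had lowest, median and highest levels of 2.96, 4.21 and 5.60 in RFIneg, of 1.63, 2.998 and 4.45 in RFIplR and of -0.49, 2.56 and 4.65 in RFIpl. All 8 RFIneg arrays lay above the RFIpl mean of 2.50 and above the RFIplR mean of 2.93, though only 2 lay above the highest RFIpl array and 3 above the highest RFIplR array. The difference was 1.69 ± 0.57 in RFIneg against RFIpl (3.24-fold, 95% interval 0.52 to 2.87, adjusted p = 0.343), 1.27 ± 0.57 in RFIneg against RFIplR (2.41-fold, adjusted p = 0.999) and 0.43 ± 0.57 in RFIplR against RFIpl (adjusted p = 0.999). Without RFIpl 2 it was 1.27 ± 0.49 in RFIneg against RFIpl, with an adjusted p of 0.562, and -0.0015 ± 0.49 in RFIplR against RFIpl. A further probe that the files name as malic enzyme only in its description, and that the rule did not take, averaged 5.61 ± 0.61 in RFIneg, 4.91 ± 0.57 in RFIplR and 4.605 ± 1.29 in RFIpl (SD, n = 8 each). Without RFIpl 2, the lowest at 2.102, its RFIpl mean was 4.96 ± 0.87 (n = 7), above that of RFIplR. This probe was brighter than the one read for ME1, and over all arrays its group means lay closer together. The size of the malic enzyme differences thus depended on the probe.

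PGD had lowest, median and highest levels of 4.87, 5.82 and 6.56 in RFIneg, of 4.48, 5.23 and 6.25 in RFIplR and of 4.37, 5.06 and 6.17 in RFIpl. In RFIneg 7 of 8 arrays lay above the median of RFIpl and of RFIplR, with 2 above the highest array of each. The difference was 0.68 ± 0.29 in RFIneg against RFIpl (1.60-fold, adjusted p = 0.612), 0.37 ± 0.29 in RFIneg against RFIplR (adjusted p = 0.999) and 0.30 ± 0.29 in RFIplR against RFIpl (adjusted p = 0.999). With RFIpl 2 left out, the differences against RFIpl were 0.57 ± 0.29 for RFIneg and 0.19 ± 0.29 for RFIplR, so PGD moved least among the 8 when that array was left out.

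In RFIneg against RFIpl 0 of the 8 enzymes were called, against 0.206% of all probes (59 probes). By direction 8 of 8 lay above 0, against 49% of all probes, and their median difference was 0.72, against -0.0062 over all probes. An unadjusted p under 0.05 was reached by 4 of 8, ME1, ACSS2, PGD and ELOVL5, against 6.86% of all probes. At the level of probes 23 of 23 lay above 0, from 0.10 to 1.78, and 10 reached an unadjusted p under 0.05. Without RFIpl 2, 0 of 8 were called (0.161% of all probes), 1 of 8, ME1, reached an unadjusted p under 0.05 (6.12% of all probes), and the median difference was 0.44 with 7 above 0 (46.5% of all probes). Of the 23 probes 21 then lay above 0 and 2 reached an unadjusted p under 0.05. Without RFIpl 2 and RFIpl 4, a choice made after seeing the values, it was 0.35 with 6 above 0. The enzymes below 0 in that last setting reached -0.48 (ACACA), while ME1 still stood at 1.03.

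**Figure D2:**
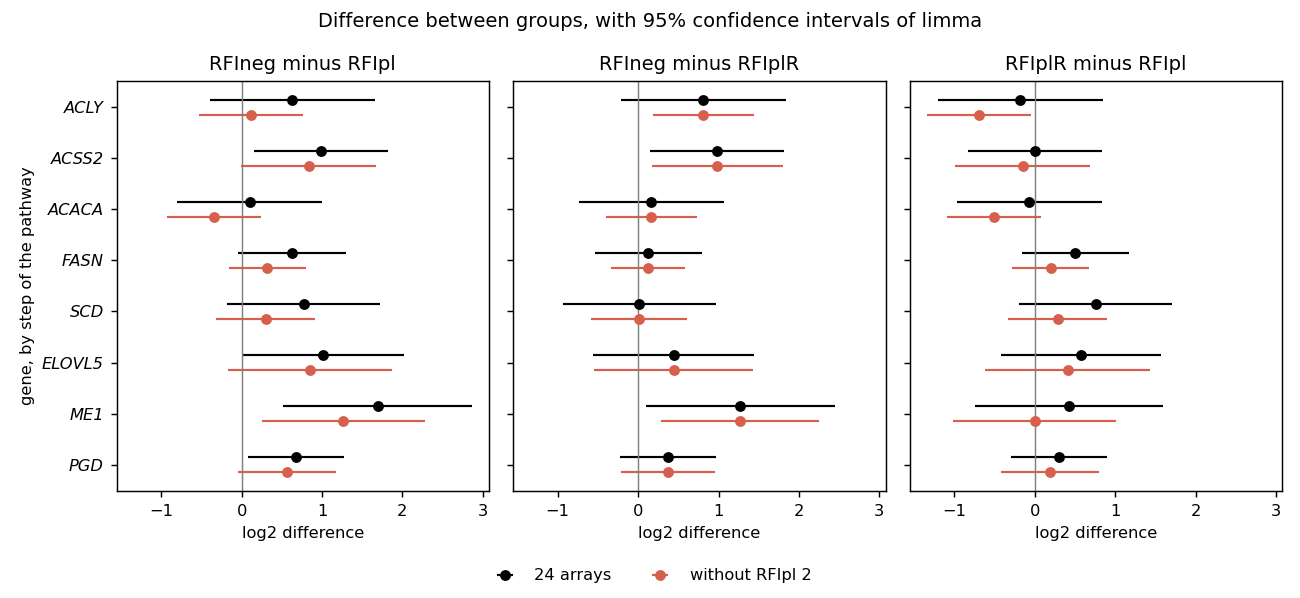
Differences of mean log2 level on the brightest probe (x axis) for each enzyme (y axis) in the 3 comparisons, as points with 95% confidence intervals of limma, over 24 arrays in black and without RFIpl 2 in red. Leaving out RFIpl 2 takes ME1 to 1.27 and ACACA to -0.34 in RFIneg against RFIpl, and leaves the middle panel in place, where only the intervals narrow.

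With feeding level held equal, in RFIneg against RFIplR, 0 of 8 enzymes were called, against 0% of all probes (0 of 28606 in limma, with 605 at an unadjusted p under 0.05). All 8 lay above 0, against 48.6% of all probes, with a median of 0.41, against -0.01 over all probes, though SCD turned below 0 without any 1 of several arrays and ACACA without RFIplR 8. On the brightest probes the differences ran down from ME1, ACSS2 and ACLY at 1.27, 0.98 and 0.81 through ELOVL5 and PGD at 0.44 and 0.37 to ACACA, FASN and SCD at 0.17, 0.12 and 0.01. This order depended on the probe, since the other ACACA probe gave 0.83 and the median of the 9 SCD probes was 0.49. The further malic enzyme probe averaged 5.61 in RFIneg and 4.91 in RFIplR, closer together than the means of the ME1 probe. With brightness as a block ELOVL5 gave 0.65. Differences between enzymes were not tested. An unadjusted p under 0.05 was reached by 2 of 8, ACSS2 and ME1, against 2.11% of all probes. All 23 probes again lay above 0, from 0.0077 to 1.27. RFIpl 2 enters this comparison only through the shared estimate of spread.

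For feed restriction within the high line, in RFIplR against RFIpl, 0 of 8 enzymes were called, against 0.297% of all probes (85 probes), and 0 of 8 reached an unadjusted p under 0.05, against 8.18% of all probes. Above 0 lay 6 of 8, against 51.5% of all probes, with a median of 0.36, against 0.01 over all probes. Without RFIpl 2, 0 of 8 were called (0.325% of all probes), the median was 0.10 with 4 of 8 above 0 (50.5% of all probes), and without RFIpl 2 and RFIpl 4 it was -0.09. Without RFIpl 2 alone the enzymes ran between -0.69 for ACLY and 0.41 for ELOVL5, and the probes above 0 numbered 14 of 23, against 18 of 23 with RFIpl 2. On this measure the enzymes had no common direction without that array, and ACSS2 also lay below 0 with quantile or median scaling, and ACSS2 and PGD with normexp background correction.

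**Figure D3:**
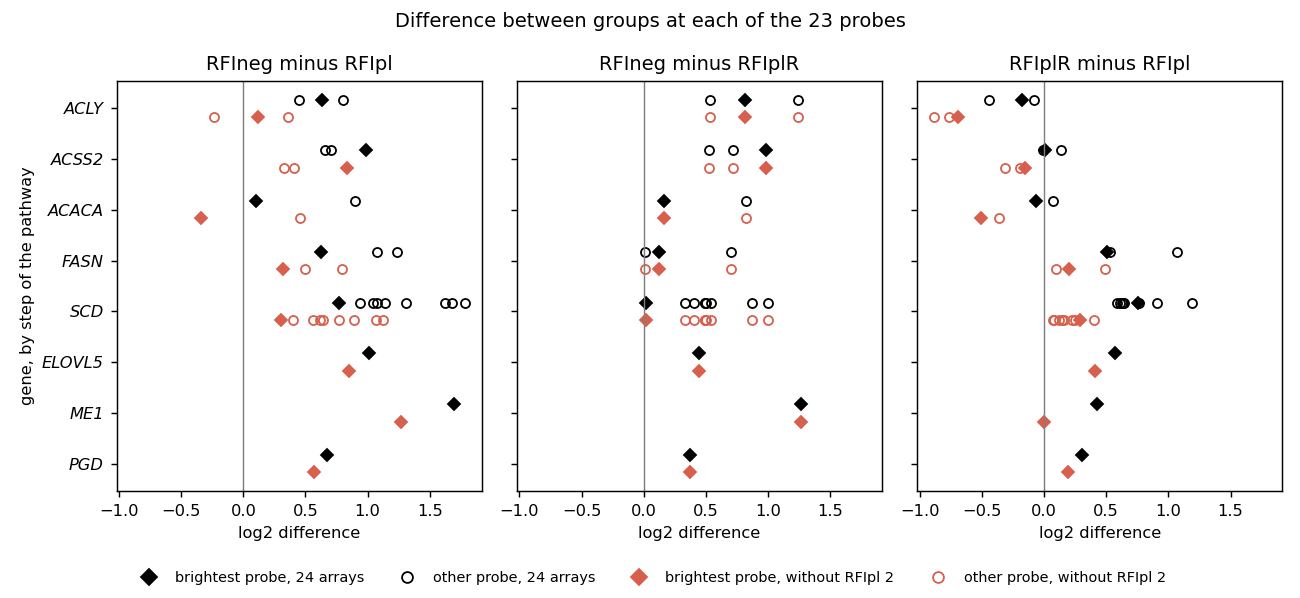
Difference of mean log2 level (x axis) at each of the 23 probes, by enzyme (y axis) and comparison, with the brightest probe of each enzyme as a filled diamond and the others as open circles, over 24 arrays in black and without RFIpl 2 in red. In RFIneg against RFIpl all 23 black points lie right of 0, and in RFIplR against RFIpl 18 do.

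Several of these enzymes differed between bright and dim arrays by as much as between groups. Bright minus dim arrays gave 1.02 for ME1, 0.94 for ACSS2 and 0.71 for PGD, but -1.69 for ELOVL5 (adjusted p = 2.2e-06), -1.27 for SCD and -0.72 for FASN. With brightness as a block ELOVL5 rose in RFIneg against RFIpl (1.01 ± 0.29, adjusted p = 0.0354), as 1 of 8, against 6.62% of all probes called in that fit, and 6 of 8 reached an unadjusted p under 0.05, against 22.8%. In the same fit 4 of the 8 fat cell markers rose, the adiponectin gene ADIPOQ, the lipid droplet genes CIDEC and PLIN1, and LIPE, by 0.27 to 0.76, and CIDEC, LIPE and PLIN1 also passed without RFIpl 2. ME1, at 1.69 ± 0.52, missed the threshold there (adjusted p = 0.0507), as did ACSS2 (adjusted p = 0.0773) and PGD (adjusted p = 0.0816). With brightness as a block and without RFIpl 2, ELOVL5 stood at 0.91 ± 0.29 (adjusted p = 0.0680) and ME1 at 1.22 ± 0.39 (adjusted p = 0.0681), so 0 of 8 were called on the brightest probes, against 5.15% of all probes. In that fit 5 of the 9 SCD probes were called, with differences of 0.59 to 1.07, while the brightest SCD probe, at 0.34 ± 0.12, was not (adjusted p = 0.0978). The same block gave no called enzyme in RFIneg against RFIplR (0% of all probes, smallest adjusted p = 0.448) or in RFIplR against RFIpl (10.4% of all probes, smallest adjusted p = 0.303). Of the 8 fat cell markers it called 0 in RFIneg against RFIplR and 2 in RFIplR against RFIpl, ADIPOQ at 0.29 and PLIN1 at 0.39. ADIPOQ also passed there without RFIpl 2.

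Within batches the direction against RFIpl varied in size. Scan days are those of the scanner files. On the first scan day, with 5 RFIneg, 3 RFIplR and 3 RFIpl arrays, all bright and without RFIpl 2, the median over the 8 enzymes was 0.19 in RFIneg against RFIpl, 0.54 in RFIneg against RFIplR and -0.21 in RFIplR against RFIpl, where 0 of 8 lay above 0. On the second, with 2 RFIneg, 4 RFIplR and 4 RFIpl arrays, the medians were 0.57, 0.61 and 0.10. The RFIneg arrays of that day, RFIneg 1 and RFIneg 7, were dim, while RFIplR and RFIpl each held bright and dim arrays. The values of the second day therefore mix group with brightness. The third day held 1 array of each group, RFIpl 2 among them. On the slides that held both groups the median was above 0 on 4 of 5 in RFIneg against RFIpl (-0.0097 to 3.38, the highest on the slide of RFIpl 2), on 5 of 5 in RFIneg against RFIplR (0.01 to 1.31) and on 3 of 5 in RFIplR against RFIpl (-0.60 to 3.098, the highest again on the slide of RFIpl 2). Within dim arrays alone the 3 medians were 0.54, 0.44 and -0.02, and within bright arrays, RFIpl 2 among them, 0.79, 0.40 and 0.46. Without RFIpl 2, a choice made after seeing the values, the bright arrays gave 0.40 in RFIneg against RFIpl and 0.08 in RFIplR against RFIpl. In RFIneg against RFIplR the median was therefore above 0 in each brightness class, on each of the 3 days and on each of these slides. These medians rest on few arrays, and the splits divide the same arrays, so they are not separate results. Some slides, like the second day, mix bright and dim arrays. Single enzymes turned within them. On the slide with the median of 0.01, 5 of 8 lay above 0, with PGD at -0.52, ELOVL5 at -0.44 and ME1 at -0.24. Another slide also had 5 of 8 above 0, with PGD at -0.83 and ACSS2 at -0.38. It set RFIneg 1, a dim array, against RFIplR 4, also dim, and RFIplR 8, a bright one. PGD stood at 4.87, 5.26 and 6.15 on these arrays in that order, and ACSS2 at 3.32, 3.40 and 3.99.

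The limma F test over the 3 groups called 0 of 8 enzymes, against 0.28% of all probes (80 probes). Its smallest adjusted p among the 8 was 0.490 for ME1. With brightness as a block it called 0 of 8, against 9.03% of all probes (2582 probes), with the smallest adjusted p, 0.0581, for ELOVL5.

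The 8 enzymes tended to stand high or low together in single pigs. Taken relative to the mean of their brightness class, the enzymes had a median of 0.43 ± 0.37 in RFIneg, -0.07 ± 0.42 in RFIplR and -0.43 ± 0.99 in RFIpl (mean of 8 arrays and SD), or -0.11 ± 0.44 over the 7 RFIpl arrays without RFIpl 2. RFIpl 2 stood at -2.65, the lowest of the 24 arrays for 6 of 8 enzymes, all but ACSS2 and ELOVL5. RFIpl 4 came next at -0.78, with all 8 enzymes below their class mean. Its TNNT3 level was -3.67, the median of the 7 RFIpl arrays without RFIpl 2. Of the fat cell markers, PLIN1, FABP4, LEP, LIPE and LPL were lowest there among these 7, but ADIPOQ, CIDEC and PPARG were not. The summed signal of 3 measured myeloid cell markers, of 5 listed, was 3.74 in RFIpl 4, the highest of the 24 arrays. This sum was at most 3.45 in RFIneg and 3.62 in RFIplR. The part of cell content in the low levels of RFIpl 4 was not tested. RFIplR 6, a dim array at -0.55, was the lowest dim array for 7 of 8 enzymes, and RFIneg 3, at 0.97, was the highest of all. The part of muscle RNA in the low levels of RFIpl 2 was not tested.

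Across pigs the levels of the enzymes varied together, least so for ACACA. Over the 23 arrays without RFIpl 2, and relative to the mean of the brightness class, the 28 pairs of enzymes had a median Pearson r of 0.58 (median Spearman rho 0.60), between -0.03 and 0.91, and 19 pairs exceeded 0.5. These values include the difference between groups, and all points share the scaling of their array. The tightest pairs were ELOVL5 with PGD (r = 0.91, rho = 0.90), ACSS2 with ME1 (r = 0.89, rho = 0.92) and ELOVL5 with ME1 (r = 0.87, rho = 0.89). ACACA ran between -0.03 with PGD and 0.57 with ACLY, and SCD followed FASN (r = 0.77, rho = 0.70) more than ACLY (r = 0.36, rho = 0.33). Over all 24 arrays the median r was 0.79, so it was higher with RFIpl 2 in.

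**Figure D4:**
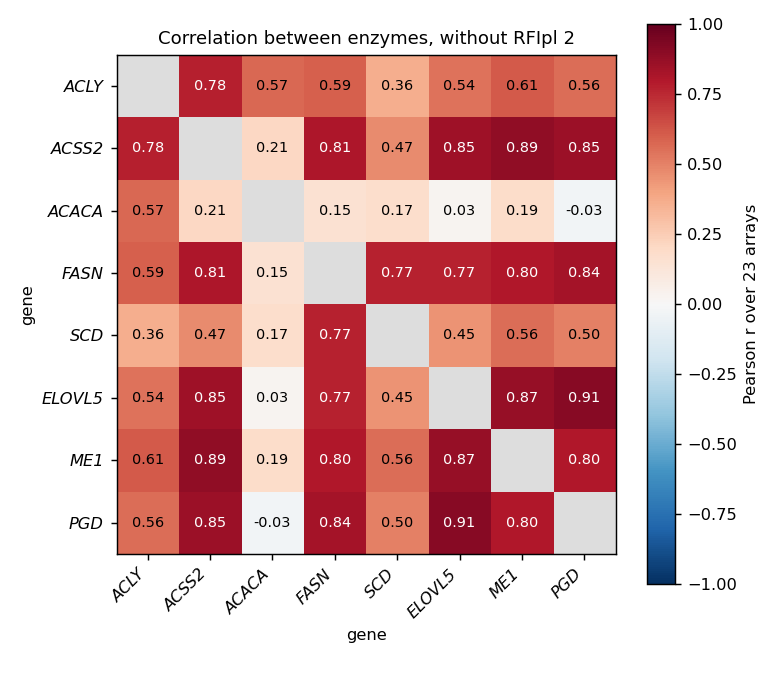
Pearson r between the levels of each pair of enzymes (both axes) over 23 arrays without RFIpl 2, relative to the mean of the brightness class, with the value in each cell. The ACACA row stays between -0.03 and 0.57, while ACSS2, ELOVL5, ME1 and PGD have r of 0.80 to 0.91 with each other.

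Among 4396 other genes with a measured probe, those whose pattern over these 23 arrays was most like the mean profile of the enzymes included BRP44 (r = 0.92, rho = 0.91), PMVK (r = 0.91, rho = 0.89), PGK1 (r = 0.90, rho = 0.89), DLAT (r = 0.89, rho = 0.83) and UQCR10 (r = 0.89, rho = 0.87). The median r over all these genes was 0.06. BRP44 encodes a subunit of the mitochondrial pyruvate carrier, DLAT the acetyltransferase of the pyruvate dehydrogenase complex, PGK1 phosphoglycerate kinase of glycolysis, PMVK phosphomevalonate kinase of sterol synthesis and UQCR10 a subunit of respiratory complex III. With RFIpl 2 included PGK1 was at r = 0.62 and UQCR10 at r = 0.75, while BRP44 stayed at 0.91. Of the 8 fat cell markers CIDEC, LPL, FABP4 and LIPE stood at r = 0.76, 0.72, 0.71 and 0.70, PLIN1 at r = 0.53, LEP at r = 0.34, ADIPOQ at r = 0.25 and PPARG at r = 0.15. TNNT3 stood at r = -0.06 over the 23 arrays and r = -0.64 over 24. BRP44 itself averaged 6.47 ± 0.66 in RFIneg, 6.02 ± 0.72 in RFIplR and 5.77 ± 0.72 in RFIpl (SD, n = 8 each).

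Other genes of the pathway were taken from a list of 27, of which 14 were on the array and 12 were measured. They comprised TKT and MDH1 of substrate and NADPH supply, the desaturation and elongation genes FADS1, ELOVL1 and HACD3, and the regulators SREBF1, SCAP, INSIG2, MLXIPL, NR1H3, USF1 and PRKAA2. None of the 12 rose or fell in any of the 3 comparisons (0.206%, 0% and 0.297% of all probes called). Above 0 lay 9 of 12 in RFIneg against RFIpl (median 0.14), 8 of 12 in RFIneg against RFIplR (median 0.06) and 7 of 12 in RFIplR against RFIpl (median 0.11). Without RFIpl 2 it was 6 of 12 in RFIneg against RFIpl (median 0.08) and 6 of 12 in RFIplR against RFIpl (median -0.03). In RFIneg against RFIpl the smallest p belonged to NR1H3, the liver X receptor alpha, at -0.31 ± 0.14 (adjusted p = 0.684), and to TKT, the transketolase of the pentose phosphate pathway, at 0.36 ± 0.21 (adjusted p = 0.905). SREBF1, the gene of the SREBP-1 transcription factor, averaged 1.91 ± 0.77 in RFIneg, 1.93 ± 0.93 in RFIplR and 1.78 ± 0.78 in RFIpl (SD, n = 8 each), less apart than the spread within any group. That spread mixes bright and dim arrays, and the highest array of each group was a dim one. With brightness as a block SREBF1 stood at 0.14 ± 0.18 in RFIneg against RFIpl and 0.18 ± 0.18 in RFIneg against RFIplR. In RFIplR against RFIpl it stood at -0.04 ± 0.18, and none of the 3 passed. In RFIneg against RFIplR the smallest p were those of MLXIPL, the gene of ChREBP, at 0.54 ± 0.35 and of MDH1, the cytosolic malate dehydrogenase, at 0.25 ± 0.21 (adjusted p = 0.999 for both).

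In RFIplR against RFIpl NR1H3 again had the smallest p. Its lowest, median and highest levels were 3.31, 3.82 and 3.96 in RFIplR, against 3.62, 4.14 and 4.46 in RFIpl, and the difference was -0.38 ± 0.14 (adjusted p = 0.357). TKT followed at 0.33 ± 0.21 (adjusted p = 0.847). With brightness as a block 3 of the 12 passed, against 10.4% of all probes. INSIG2 had lowest, median and highest levels of -4.69, -2.31 and -1.91 in RFIplR, against -5.56, -2.57 and -2.38 in RFIpl, overlapping ranges near background, with 5 and 6 of 8 arrays well above it. This gene, whose protein retains the SREBP escort protein in the endoplasmic reticulum, rose by 0.61 ± 0.15 (adjusted p = 0.0113), SCAP, that escort protein, rose by 0.41 ± 0.13 (adjusted p = 0.0475), and NR1H3 fell by 0.38 ± 0.12 (adjusted p = 0.0498). Without RFIpl 2 as well, INSIG2 (0.62 ± 0.15, adjusted p = 0.0143) and PRKAA2, a catalytic subunit of AMP-activated kinase (0.53 ± 0.14, adjusted p = 0.0177), passed, while SCAP (adjusted p = 0.0613) and NR1H3 (adjusted p = 0.0815) did not. In that fit 10.9% of all probes were called, against which the 2 of 12 are to be read. The highest PRKAA2 level in RFIpl, 2.51, was that of RFIpl 2.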

How the data were processed

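The authors deposited 1 scanner file per array, whose processed intensity was background-subtracted, per the file headers (Feature Extraction, 10.7.3.1), and a table of log2 values, which matched log2 of that intensity centred on each array's median for 24582 probes. The submitters' processing notes name R 2.10.0. The sources used here do not say how the table's probes were chosen. From the scanner files, log2 of the processed intensity (floor 1) minus the 75th percentile of the array was computed. Control and non-uniform spots were left out. Probes well above background on at least 6 of 8 arrays of a group and missing on at most 6 arrays were kept. Symbols came from RefSeq (Sscrofa11.1, names only). A gene is given at its kept probe with the highest mean signal. Group means were fitted with limma 3.58.1 (lmFit, eBayes, R 4.3.3), tested on simulated data. Figures and summaries used Python 3.11.15, pandas 2.3.3 and matplotlib 3.10.9. The enzymes, the other lists and the tests were chosen with earlier results of these data known. Genes outside the list were named by a rule (passing the test, else the 2 smallest p of the pathway, the 6 highest r, and marker genes), and 1 gene it names is not reported here. The number of arrays limits the precision.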

Additional observations from a re-analysis of the deposited data

Results flagged for a closer look

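Of 24 groups of 8 levels tested for an outlying array by Dixon's ratio (the gap to the nearest array over the range of the group, against its 95% critical value), 6 were past it. Chance alone marks about 1 in 20 of independent groups, but these are not independent. The enzymes vary together over the same arrays, and each group mixes bright and dim arrays. RFIpl 2 was the outlying array in 4 of them, always the lowest. The ratio was 0.736 for SCD, with a level of 4.36 next to 7.54, 0.694 for ACLY, with 3.40 next to 6.59, 0.645 for ACACA, with -0.79 next to 1.92, and 0.555 for FASN, with 6.05 next to 7.65. In RFIneg, RFIneg 8 was low for ACLY, at 6.20 next to 7.25 (ratio 0.550). In RFIplR, RFIplR 8 was low for ACACA, at 0.78 next to 2.13 (ratio 0.663), an array whose 8 enzymes together stood at 0.03 relative to the bright arrays.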

How the results depend on the processing

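On the brightest probe of each gene, or the mean of its probes, the number of enzymes called stayed at 0 in all 3 comparisons under every alternative but one. With brightness as a block it was 1 in RFIneg against RFIpl (ELOVL5, 1.01, adjusted p = 0.0354), and with replicate number and brightness as blocks together 0 (smallest adjusted p = 0.0502). Over all 23 probes, 5 of the 9 SCD probes were also called in that comparison with brightness as a block and without RFIpl 2. Replicate numbers were not found to pair the pigs (12 of 24 same-number pairs of arrays correlated above 0.1, and 1 of 24 relative to group and brightness class). The replicate block gave 0 called enzymes and medians of 0.72, 0.41 and 0.36 in RFIneg against RFIpl, RFIneg against RFIplR and RFIplR against RFIpl. Probes called over the whole array ran between 0 and 1895 in RFIneg against RFIpl (59 in the fit reported) and between 0 and 3105 in RFIplR against RFIpl (85), and were 0 throughout in RFIneg against RFIplR. They numbered 284 and 296 without RFIpl 3. The cause was not tested.

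The median over the enzymes was 0.44 to 0.84 with single arrays left out in RFIneg against RFIpl (lowest without RFIpl 2), 0.25 to 0.51 in RFIneg against RFIplR (lowest without RFIplR 5) and 0.10 to 0.53 in RFIplR against RFIpl (lowest without RFIpl 2, then 0.20 without RFIplR 7). Normexp background correction moved the median of all probes to -0.19 in RFIneg against RFIplR and 0.20 in RFIplR against RFIpl, where the enzymes stood at 0.61 and 0.09, the second below all probes. With no filter on dim probes the medians of all probes were -0.10 and 0.14.

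Signs of single enzymes that turned, none of them called, were as follows. In RFIneg against RFIpl ACACA stood at -0.34 without RFIpl 2, -0.27 without RFIpl 1 and 2, -0.33 without RFIpl 2 and with brightness as a block, -0.091 in dim arrays and -0.88 on the first scan day, when ACLY stood at -0.22. In RFIneg against RFIplR ACACA stood at -0.052 on the first day and PGD at -0.054 on the second, which mixed bright and dim arrays. In RFIplR against RFIpl the first day gave -0.45 for ACSS2, -0.19 for FASN, -0.033 for SCD, -0.23 for ELOVL5, -0.063 for ME1 and -0.15 for PGD, and the second -0.21 for ACSS2 and -0.10 for ME1. There ACSS2, at 0.0031 in the fit reported, stood at -0.15 without RFIpl 2, -0.15 without RFIpl 1 and 2, -0.060 without RFIpl 2 and with brightness as a block, -0.37 in dim arrays, -0.20 with normexp, -0.016 with quantile scaling, -0.022 with median scaling and -0.0081 in the deposited table. ME1 stood at -0.0015 without RFIpl 2, -0.0031 without RFIpl 1 and 2 and -0.060 in dim arrays, PGD at -0.011 with normexp, and ACACA at 0.0024 as the mean of its probes. With single arrays left out, ACACA ran from -0.34 to 0.26 in RFIneg against RFIpl, from -0.045 to 0.27 in RFIneg against RFIplR (below 0 without RFIplR 8) and from -0.51 to 0.14 in RFIplR against RFIpl, SCD from -0.13 to 0.17 in RFIneg against RFIplR, and in RFIplR against RFIpl ACSS2 from -0.16 to 0.25 and ME1 from -0.0015 to 0.73. The cause was not tested.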
